A study of Mus musculus with 9 samples.

Results

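The genes of mitosis and chromosome segregation were a list of 38 symbols, chosen by gene name from textbook roles in cell division. Earlier results of these data were known when the list was chosen. All 38 had a probe in the platform annotation, 82 probes in all. For each gene the probe with the highest mean over the 9 arrays stood for the gene, and 36 of the 38 passed the filter on low values, which asked for a value above 7.5 on at least 4 arrays. They are 36 of 8543 genes tested. The other members were Ccnb2, above 7.5 on 3 arrays, and Racgap1, above 7.5 on 1 array. Values at or below 7.5 are called background below, and folds given as at least are counted from 7.5. This cutoff was fixed and not checked against detection p-values, which no label tied to the samples.

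In mitosis, cyclin-dependent kinase 1 with its cyclin partners drives the cell out of G2, the chromosomes condense, and a bipolar spindle captures their kinetochores. The spindle checkpoint holds the anaphase-promoting complex (APC/C), a ubiquitin ligase, in check until every kinetochore is attached, after which sister chromatids part and the cell is cut in the middle by cytokinesis. Most transcripts of these proteins are made late in the cell cycle, so in bulk RNA they follow how many cells are dividing. In bone marrow most long-term stem cells are quiescent, and loss of dividing blood cells draws stem and progenitor cells into the cycle.

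The 9 samples are Illumina bead arrays of LSK cells (lineage-negative, Sca-1-positive, Kit-positive marrow cells, which hold stem cells and early progenitors) sorted from bone marrow. There were 4 arrays of Socs2-/- mice, which lack a cytokine-induced inhibitor of JAK-STAT signalling, and 5 arrays of wt mice. Per the labels, both genotypes were male C57BL/6 mice aged 12 weeks that had received 5-fluorouracil, a drug that kills dividing cells, at 150 µg/g 6 days before, and 250 pg of total RNA per sample was amplified. The comparison addresses what loss of Socs2 does to transcripts of these cells while the marrow recovers. How the Socs2 allele was made, and whether an array holds 1 mouse or a pool, were not given in the sources used here. The p-values therefore describe variation among the arrays at hand, part of which may be technical.

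The sequence around the transcript start was not itself used to choose the list. The motifs searched are those that textbooks give for genes of this kind, so high shares are not independent of the choice. In textbook accounts, late cell cycle promoters carry a CHR element, bound by the MuvB core of the DREAM and MYB-MuvB complexes, and CCAAT boxes, bound by NF-Y. RefSeq windows (build GRCm38.p6, from 250 bases before to 50 bases after the start) were on hand for 32 of the 38 genes and were searched on both strands for the CHR cores TTTGAA and TTCGAA and for CCAAT. A CHR core was found in 27 of 32 member genes (84.4%), against 5854 of 27025 genes in the table (21.7%). Within 60 bases before to 50 bases after the start it was found in 25 of 32 (78.1%), against 6.79% of all genes. CCAAT was found in 27 of 32 (84.4%), against 41.1% of all genes, and 25 of 32 held both motifs (78.1%), against 8.61%. The 3 genes with neither motif in the window were Birc5, Mad2l1 and Nusap1. These shares describe letters in a window and not bound sites, and they bear on the list rather than on the genotypes.

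**Figure D1:**
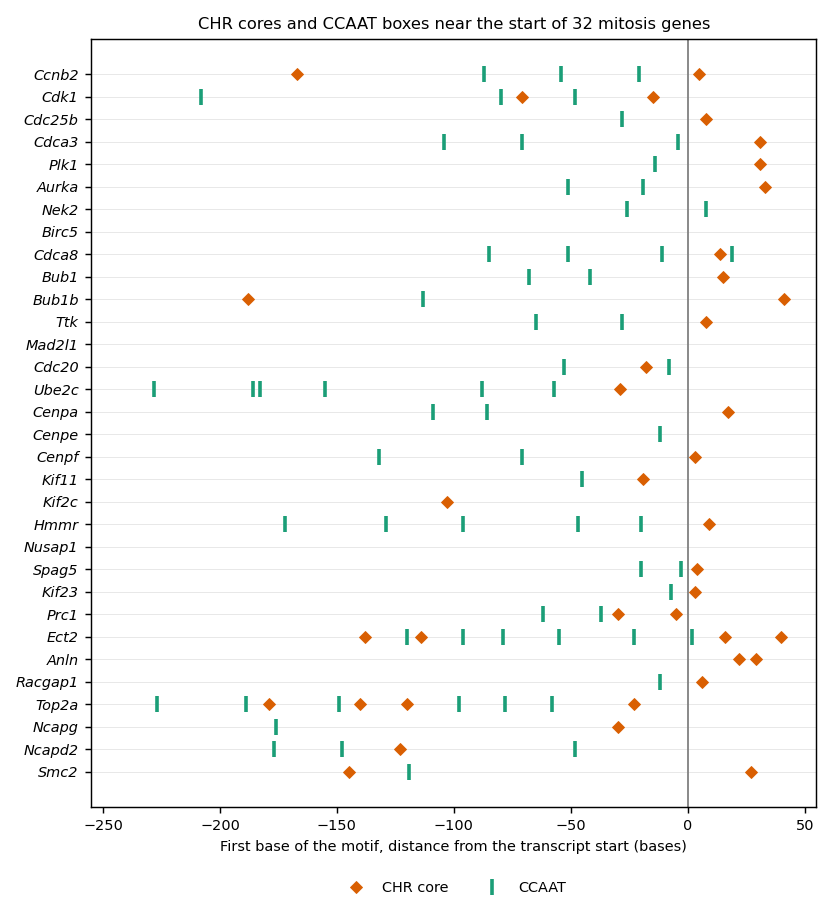
Place of each CHR core (diamonds) and CCAAT box (bars) in the RefSeq windows of 32 mitosis genes, with the distance of the motif's first base from the transcript start in bases on the horizontal axis and a gene on each row. Ect2 and Prc1 have several windows, drawn on the same row. Of the 32 genes, 25 have a CHR core between -60 and 50, and Birc5, Mad2l1 and Nusap1 have no motif.

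The windows below run from 130 bases before to 30 bases after the start, 160 bases each, on the strand of the gene. They are shown for the 3 genes with windows in the table that come first in the genotype comparison (Ncapg, Hmmr and Kif2c) and for 3 well-known late cell cycle genes (Ccnb2, Cdk1 and Cdc20). Capitals mark CHR cores and CCAAT boxes, read on either strand.
Ncapg, chr5:45669795-45669954, plus strand: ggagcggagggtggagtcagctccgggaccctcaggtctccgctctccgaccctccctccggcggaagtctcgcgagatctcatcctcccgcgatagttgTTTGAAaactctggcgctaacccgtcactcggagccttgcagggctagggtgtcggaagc
Hmmr, chr11:40733408-40733567, minus strand: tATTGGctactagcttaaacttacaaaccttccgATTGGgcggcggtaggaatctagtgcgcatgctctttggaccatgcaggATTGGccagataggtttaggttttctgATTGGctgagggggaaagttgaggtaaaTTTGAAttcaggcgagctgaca
Kif2c, chr4:117178743-117178902, minus strand: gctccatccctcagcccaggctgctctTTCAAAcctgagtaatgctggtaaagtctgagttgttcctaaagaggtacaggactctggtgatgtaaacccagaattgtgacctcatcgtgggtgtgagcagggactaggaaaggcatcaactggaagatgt
Ccnb2, chr9:70421525-70421684, minus strand: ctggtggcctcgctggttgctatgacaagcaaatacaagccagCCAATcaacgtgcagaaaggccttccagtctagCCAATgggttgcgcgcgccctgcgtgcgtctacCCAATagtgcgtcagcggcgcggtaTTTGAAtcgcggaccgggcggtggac
Cdk1, chr10:69352883-69353042, minus strand: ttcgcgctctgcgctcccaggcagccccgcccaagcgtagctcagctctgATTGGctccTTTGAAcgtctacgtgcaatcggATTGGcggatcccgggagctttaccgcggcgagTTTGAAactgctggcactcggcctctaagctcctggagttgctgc
Cdc20, chr4:118437314-118437473, minus strand: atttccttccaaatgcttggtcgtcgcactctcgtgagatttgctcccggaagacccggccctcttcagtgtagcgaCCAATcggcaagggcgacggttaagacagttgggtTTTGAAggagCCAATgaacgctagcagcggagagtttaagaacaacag
The Ccnb2 stretch holds 3 CCAAT boxes upstream of 1 CHR core, and Hmmr holds 4 CCAAT boxes and 1 CHR core. Those of Ncapg and Kif2c hold 1 CHR core each and 0 CCAAT boxes. Cdk1 holds 2 CHR cores and 2 CCAAT boxes, and Cdc20 holds 1 CHR core and 2 CCAAT boxes.

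Socs2 itself read 6.80, 6.78, 6.58 and 6.70 in Socs2-/- arrays, against 9.59, 9.39, 10.36, 9.38 and 9.65 in wt arrays, and fell at least 4.51-fold (limma adjusted p = 0.036), as the labels say. Socs2-/- arrays 1 and 2 stood apart from the rest. They had 31.1% and 31.0% of all probes above 7.5, against 34.3% to 35.4% on the other 7 arrays. Their median correlations with the other arrays, across all probes, were 0.68 and 0.65, against 0.78 to 0.82. Differences below are therefore given on all 9 arrays and on the 7 arrays without these. Kit, which defines the sorted gate, read above 7.5 on 3 of 4 Socs2-/- arrays and on 5 of 5 wt arrays, the exception being Socs2-/- array 2 at 6.84.

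No mitosis gene passed the threshold of adjusted p under 0.05 in limma, on 9 arrays or on 7. Over all genes 1 of 8543 passed on 9 arrays (0.0117%) and 0 on 7 arrays (0%). At an unadjusted p under 0.05 on 9 arrays, 2 of 36 members were lower (5.56%), against 7.87% of all genes. In the other direction 1 of 36 was higher (2.78%), against 2.29% of all genes. These shares lay near the background. On 7 arrays no member passed that p in either direction, where 3.44% of all genes were lower and 2.96% higher. The Socs2-/- and wt values overlapped in all 36 members on 9 arrays and on 7 arrays, where 3.7% and 10.4% of all genes had genotypes that were fully apart.

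The log2 difference, Socs2-/- minus wt, was below 0 in 24 of 36 members on 9 arrays (66.7%), against 59.5% of all genes. Its median over the members was -0.35, against -0.18 over all genes, hence -0.17 relative to them. Without Socs2-/- arrays 1 and 2 the difference was below 0 in 16 of 36 (44.4%), against 52% of all genes, and the median was 0.06, against -0.03. Of the 24 members below 0 on 9 arrays, 11 were above 0 on 7 arrays. The share of all genes that changed sign in this way was not computed. A lower bulk value cannot tell fewer dividing cells from less RNA per cell.

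Fewer members read above 7.5 on Socs2-/- arrays 1 and 2 than on the other 7 arrays. Socs2-/- arrays 1 to 4 had 26, 29, 33 and 33 of the 36 members above 7.5, and wt arrays 1 to 5 had 34, 35, 31, 34 and 32. In percent, array 1 of the knockout had 72.2% of members above 7.5, against 67.3% of all genes tested, and array 2 had 80.6%, against 63.4%. On the other 7 arrays the members' share lay between 86.1% and 97.2%, against 81.5% to 85.4% of all genes tested. The lowest of a gene's 9 values was on Socs2-/- array 1 or 2 for 17 of 36 members (47.2%), against 52.6% of all genes. At or below 7.5 on at least 1 of these arrays were 13 of 36 members (36.1%), against 50.9% of all genes. On these arrays a larger share of all genes than of members was at background.

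**Figure D2:**
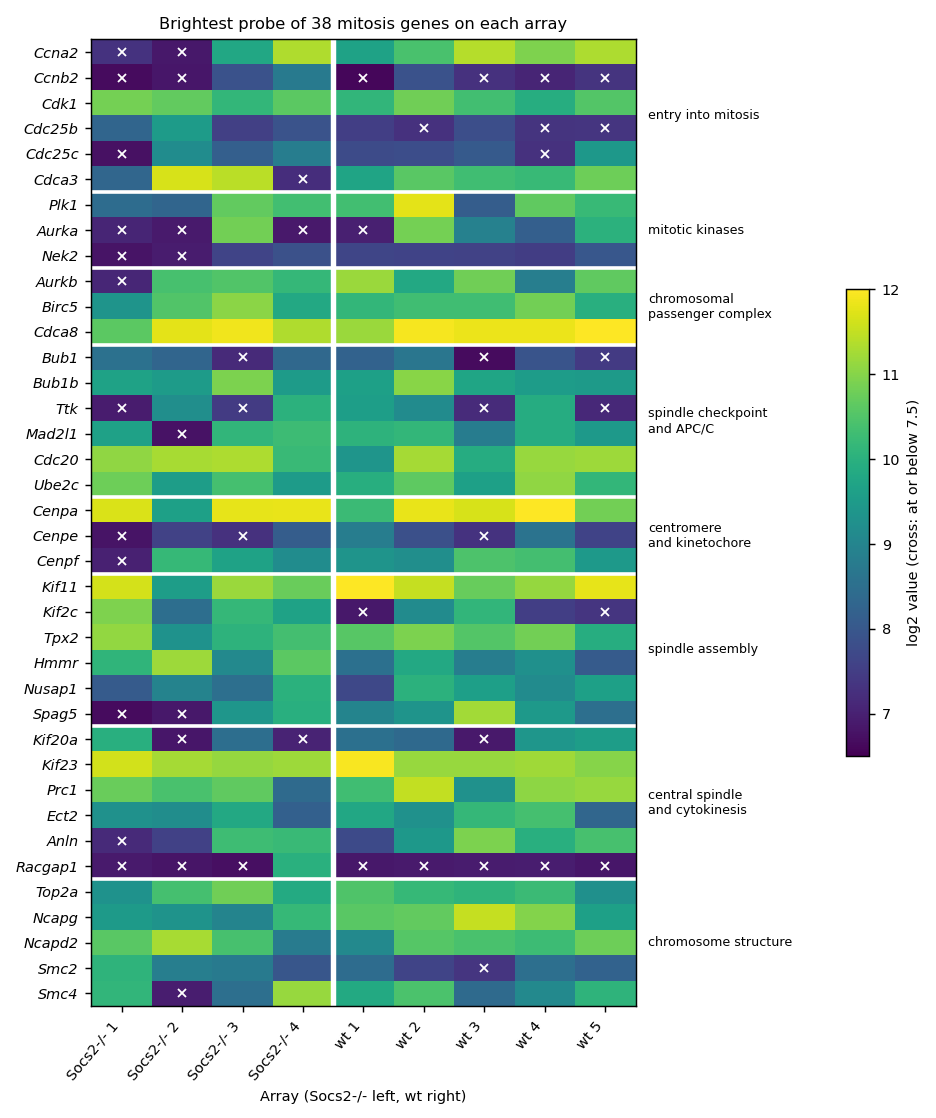
Log2 value of the brightest probe of each of the 38 mitosis genes (rows, grouped by role) on each array (columns, Socs2-/- left and wt right), with crosses at values at or below 7.5. Colours show levels within a row across arrays and do not rank different probes. Crosses gather in the columns of Socs2-/- arrays 1 and 2, which have 10 and 7 among the 36 genes tested.

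**Figure D3:**
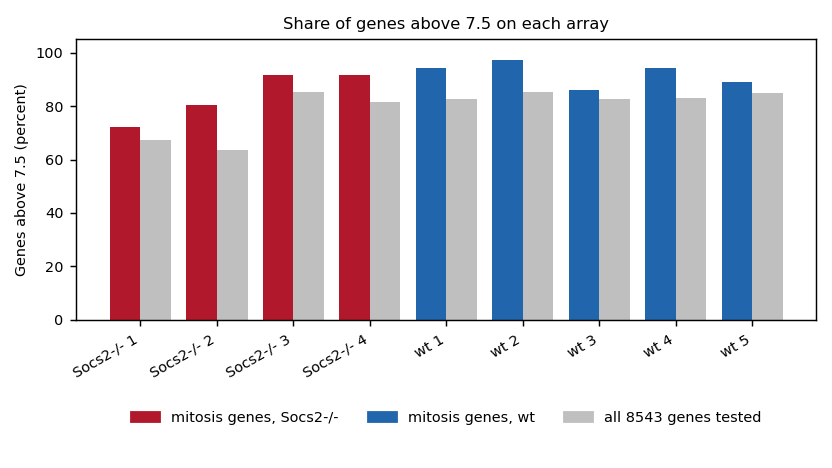
Percent of the 36 mitosis genes tested above 7.5 on each array (red, Socs2-/-, and blue, wt), beside the percent of all 8543 genes tested (grey). The mitosis bar is above the grey bar on all 9 arrays, and both are lowest on Socs2-/- arrays 1 and 2.

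Genes of entry into mitosis were 6, of which 5 were tested, with 2 below 0 and a median of 0.16 on 9 arrays and 0.03 on 7. Ccna2, cyclin A2, which activates the kinases of S phase and early mitosis, read 7.31, 6.85, 9.81 and 11.34 in Socs2-/- arrays, against 9.67, 10.42, 11.38, 10.94 and 11.33 in wt arrays. Only Socs2-/- arrays 1 and 2 were below the wt range, both at background, while arrays 3 and 4 lay inside it. Its difference was -1.92 (SE 0.87, unadjusted p = 0.049, limma adjusted p = 0.490) on 9 arrays and -0.17 (SE 0.61, adjusted p = 0.980) on 7.

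Cdc25b, a phosphatase that activates cyclin-dependent kinases, read 8.30, 9.52, 7.53 and 7.91 in Socs2-/- arrays, against 7.51, 7.28, 7.83, 7.33 and 7.36 in wt arrays. The wt values sat near background, and Socs2-/- arrays 1 and 2 were the highest of the 9. The difference was 0.86 (SE 0.44, limma adjusted p = 0.528) on 9 arrays and 0.26 on 7. Cdk1, the mitotic kinase itself, ranged from 10.13 to 10.85 in Socs2-/- arrays, against 9.94 to 10.81 in wt arrays. Its difference of 0.23 had a 95% confidence interval from -0.54 to 0.996 on 9 arrays, and was 0.03 on 7. Cdc25c, the related phosphatase, had 0.16 on 9 arrays and 0.43 on 7, and Cdca3, a mitotic adaptor of ubiquitin ligases, had -0.67 and -1.0004. Cdca3 spread widely in the knockout, at 8.31, 11.67, 11.42 and 7.22, against 9.70 to 10.79 in wt. Ccnb2, cyclin B2, was above 7.5 on Socs2-/- arrays 3 (7.88) and 4 (8.75) and on wt array 2 (7.89), and was not tested.

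The mitotic kinases Plk1, Aurka and Nek2 were all below 0 on 9 arrays, with a median of -0.79, and 1 of 3 was below 0 on 7 arrays, with a median of 0.08. Aurka, the centrosome kinase that builds the spindle poles, read 7.06, 6.89, 10.82 and 6.88 in Socs2-/- arrays, against 6.98, 10.85, 8.92, 8.16 and 10.03 in wt arrays. It was above 7.5 on 1 of 4 Socs2-/- arrays and on 4 of 5 wt arrays, and the ranges covered each other. Its difference was -1.07 (SE 0.98, limma adjusted p = 0.703) on 9 arrays and -0.14 (SE 1.27) on 7. Plk1, the polo kinase that acts from mitotic entry to cytokinesis, read 8.44, 8.29, 10.69 and 10.34 in Socs2-/- arrays, against 10.34, 11.78, 8.13, 10.66 and 10.21 in wt arrays. Socs2-/- arrays 1 and 2 and wt array 3 were low, and the other 6 arrays were high. Its difference was -0.79 (SE 0.77) on 9 arrays and 0.29 (SE 0.85) on 7. Nek2, a kinase that splits the centrosomes, had -0.37 on 9 arrays and 0.08 on 7, with both low-signal arrays at background.

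The chromosomal passenger complex, which corrects wrong attachments at centromeres, was read from 3 subunits, all below 0 on 9 arrays with a median of -0.35. On 7 arrays 1 of 3 was below 0, with a median of 0.07. Aurkb, its kinase, had a difference of -0.73 (SE 0.76) on 9 arrays and 0.07 on 7. In the knockout it read 7.09 on array 1 and 10.16 to 10.50 on the others, against 8.86 to 11.18 in wt. Birc5 (survivin) and Cdca8 (borealin), which tether the kinase, had -0.14 and -0.35 on 9 arrays and 0.11 and -0.14 on 7. With each of the 9 arrays centred on its median Birc5 had 0.05.

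Genes of the spindle checkpoint and the APC/C were 6, with 3 below 0 and a median of -0.08 on 9 arrays, and 2 below 0 with a median of 0.18 on 7. The kinase Bub1 had 0.31 on 9 arrays and -0.02 on 7, and its relative Bub1b (BubR1), which inhibits the APC/C, had 0.02 and 0.34. The checkpoint kinase Ttk (Mps1) had -0.19 on 9 arrays, or 0.005 with centred arrays, and 0.15 on 7. Dimmer Ttk probes that met the filter had -1.35 and 0.48 on 9 arrays, and -0.60 and 1.01 on 7. Mad2l1 (Mad2), which sequesters Cdc20, had -0.47 on 9 arrays and 0.52 on 7; it read 6.78 on Socs2-/- array 2 and 9.65 to 10.27 on the other Socs2-/- arrays, against 8.81 to 10.14 in wt. The APC/C activator Cdc20 had 0.41 on 9 arrays and 0.20 on 7, and Ube2c, the ubiquitin-conjugating enzyme of the APC/C, had -0.23 and -0.35. Adjusted p in limma on 9 arrays lay between 0.786 and 0.988 for these 6 genes.

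At the centromere, the 3 members were below 0 by their brightest probes on 9 arrays, with a median of -0.59. On 7 arrays 2 of 3 were, with a median of -0.33. Cenpe, a kinesin that moves chromosomes to the spindle equator, read 6.79, 7.58, 7.28 and 8.12 in Socs2-/- arrays, against 8.83, 7.85, 7.31, 8.59 and 7.60 in wt arrays. Values near background were found in both genotypes, and its difference was -0.59 (SE 0.45, limma adjusted p = 0.647), or -0.33 on 7 arrays. Cenpf, a large outer kinetochore protein, read 7.003, 10.19, 9.66 and 9.18 in Socs2-/- arrays, against 9.35, 9.21, 10.47, 10.36 and 9.45 in wt arrays. Socs2-/- array 1 alone was at background, array 4 was just below the wt range, and arrays 2 and 3 lay inside it. The difference of -0.76 (SE 0.63, adjusted p = 0.675) was -0.35 on 7 arrays, and -0.09 with only Socs2-/- array 1 left out. Cenpa, the histone variant that marks the centromere, had -0.13 on 9 arrays, or 0.06 with centred arrays, and 0.44 on 7. A dimmer Cenpa probe (ILMN_2471161), above 7.5 on all 9 arrays, had 1.02 on 9 arrays and 0.74 on 7.

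Among 6 spindle assembly genes, 4 were below 0 on 9 arrays with a median of -0.34, and 2 were below 0 on 7 arrays with a median of 0.11. Hmmr (RHAMM), a microtubule protein of the spindle poles, read 10.09, 11.19, 9.08 and 10.61 in Socs2-/- arrays, against 8.52, 9.82, 8.83, 9.26 and 8.09 in wt arrays. Socs2-/- arrays 1, 2 and 4 were above every wt array, and array 3 lay inside the wt range. The difference was 1.34 (SE 0.52, unadjusted p = 0.026, limma adjusted p = 0.454) on 9 arrays and 0.94 (SE 0.60, adjusted p = 0.9001) on 7.

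Kif2c (MCAK), a kinesin that takes microtubules apart at kinetochores, read 10.93, 8.50, 10.17 and 9.67 in Socs2-/- arrays, against 6.85, 9.16, 10.12, 7.52 and 7.35 in wt arrays. All 4 Socs2-/- values were above 7.5, as were 3 of 5 wt values, of which wt array 4 lay only just above it. Its difference was 1.61 (SE 0.74, adjusted p = 0.497) on 9 arrays and 1.72 (SE 0.88, adjusted p = 0.847) on 7. Kif2c was thus a member whose difference was as large without the low-signal arrays.

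Spag5 (astrin), which stabilises attached kinetochores, read 6.67, 6.85, 9.40 and 9.97 in Socs2-/- arrays, against 8.98, 9.34, 11.24, 9.46 and 8.51 in wt arrays. As for Ccna2, only Socs2-/- arrays 1 and 2 were below the wt range. The difference was -1.29 (SE 0.80, limma adjusted p = 0.591) on 9 arrays and 0.17 (SE 0.70) on 7. Kif11 (Eg5), the motor that pushes the spindle poles apart, read 11.65, 9.55, 11.18 and 10.74 in Socs2-/- arrays, against 12.15, 11.52, 10.73, 11.14 and 11.80 in wt arrays. Its lowest value was Socs2-/- array 2. The difference was -0.69 (SE 0.49, adjusted p = 0.634) on 9 arrays and -0.51 on 7, and -0.28 with only Socs2-/- array 2 left out. Tpx2, an activator of Aurka on the spindle, and the microtubule bundler Nusap1 had -0.34 and -0.33 on 9 arrays and -0.35 and 0.05 on 7.

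Of 6 genes of the central spindle and cytokinesis, 5 were tested. On 9 arrays 4 were below 0, with a median of -0.47, and on 7 arrays also 4, with a median of -0.59, of which Prc1, Ect2 and Kif20a were below 0 in both. Anln (anillin), which scaffolds the contractile ring, read 7.15, 7.56, 10.30 and 10.23 in Socs2-/- arrays, against 7.74, 9.44, 10.91, 9.97 and 10.40 in wt arrays. Low together were Socs2-/- arrays 1 and 2 and wt array 1, and the other 6 arrays were high. Its difference was -0.88 (SE 0.84, limma adjusted p = 0.715) on 9 arrays and 0.57 (SE 0.79) on 7. A dimmer Anln probe that met the filter had -0.89 on 9 arrays and -0.67 on 7, so only the brightest probe changed sign. Prc1, which bundles the midzone microtubules, had -0.60 on 9 arrays and -1.12 on 7, with Socs2-/- array 4 at 8.41 the lowest. Kif20a, a midzone kinesin, had -0.46 on 9 arrays and -0.77 on 7, and Ect2, which activates RhoA at the cleavage site, had -0.47 and -0.59. Kif23 (MKLP1), the kinesin of the centralspindlin complex, averaged 11.30 ± 0.22 in Socs2-/- arrays (SD, n = 4) and 11.29 ± 0.38 in wt arrays (SD, n = 5), a difference of 0.0055 with a 95% confidence interval from -0.76 to 0.77, or -0.13 on 7 arrays. Racgap1, its partner in that complex, read 9.99 on Socs2-/- array 4 and at most 6.94 elsewhere.

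In the chromosome structure group, 2 of 5 genes were below 0 on 9 arrays and 2 on 7, with medians of 0.04 and 0.26. Ncapg, a subunit of condensin I, read 9.49, 9.33, 8.98 and 10.19 in Socs2-/- arrays, against 10.59, 10.68, 11.52, 10.98 and 9.62 in wt arrays. Socs2-/- arrays 1, 2 and 3 were below every wt array, and array 4 was above wt array 5 alone. The difference was -1.18 (SE 0.45, unadjusted p = 0.025, limma adjusted p = 0.453) on 9 arrays and -1.09 (SE 0.57, adjusted p = 0.849) on 7.

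Smc2, a core ATPase of both condensins, read 10.08, 8.85, 8.76 and 7.98 in Socs2-/- arrays, against 8.44, 7.62, 7.34, 8.51 and 8.24 in wt arrays. Above every wt array were Socs2-/- arrays 1, 2 and 3. The difference was 0.88 (SE 0.48, limma adjusted p = 0.548) on 9 arrays and 0.33 on 7. Its partner Smc4 had -0.39 on 9 arrays and 0.26 on 7, and the condensin I subunit Ncapd2 had 0.04 and -0.63. Top2a, the topoisomerase that untangles sister chromatids, had 0.04 with a 95% confidence interval from -0.90 to 0.98 on 9 arrays, and 0.28 on 7. By their brightest probes on 9 arrays the condensin subunits did not share a direction, with Ncapg and Smc4 below 0 and Smc2 and Ncapd2 above 0. On 7 arrays the brightest probes of Smc4 and Ncapd2 had the opposite sign.

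**Figure D4:**
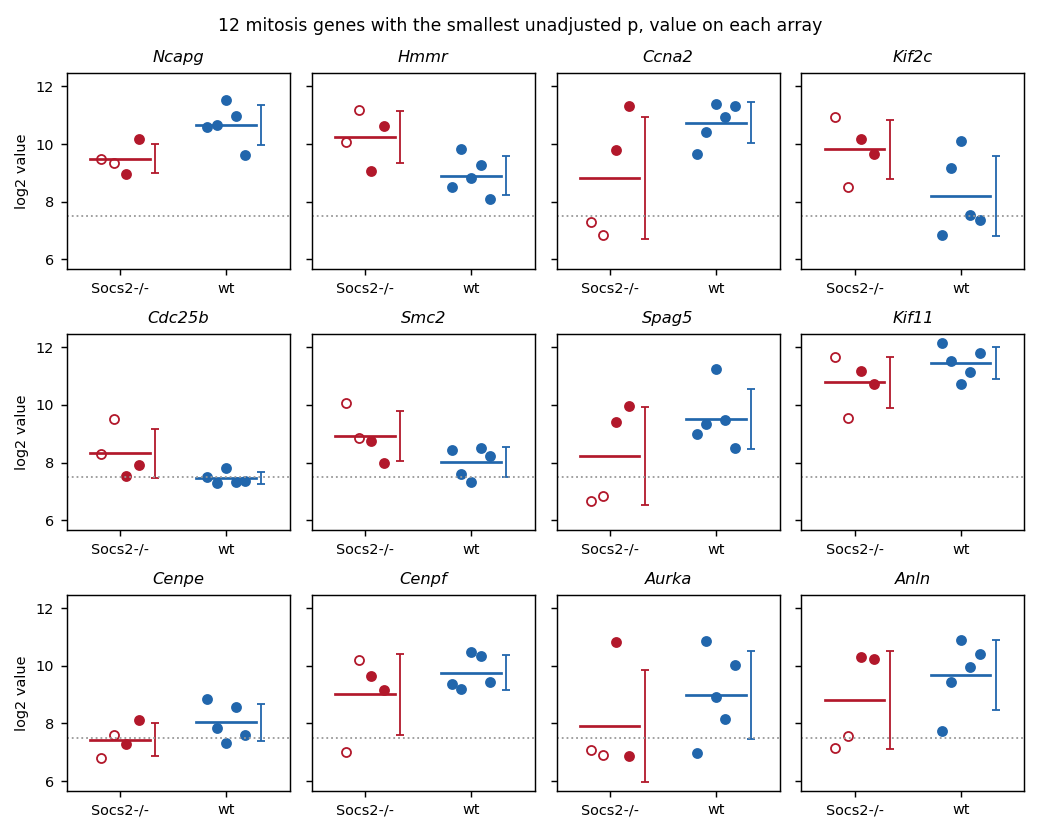
Log2 values of the 12 mitosis genes with the smallest unadjusted p, each point an array, with open red points for Socs2-/- arrays 1 and 2, filled red points for Socs2-/- arrays 3 and 4, and blue points for the 5 wt arrays. Lines are means, bars are SD, and the dotted line is 7.5. In Ccna2 and Spag5 only the open points lie below the wt range.

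**Figure D5:**
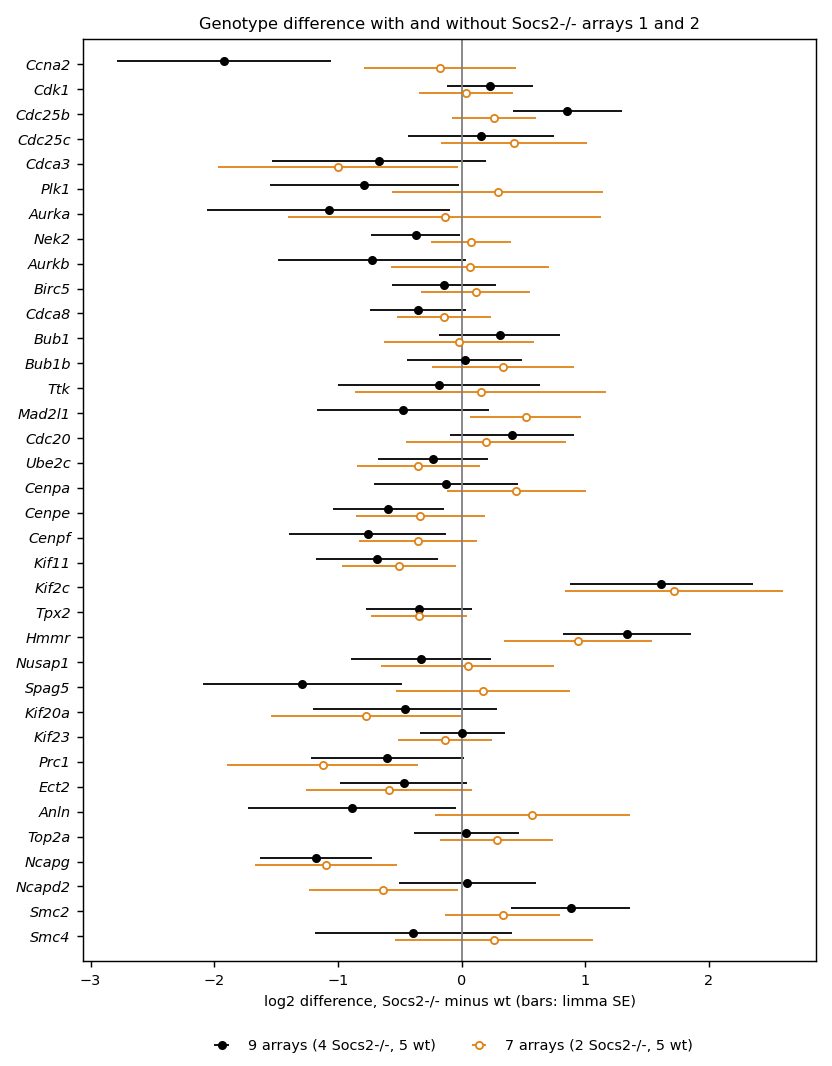
Log2 difference, Socs2-/- minus wt, with its limma SE for the 36 mitosis genes tested, on 9 arrays (black) and on the 7 arrays without Socs2-/- arrays 1 and 2 (orange, open). Kif2c (1.61 and 1.72) and Ncapg (-1.18 and -1.09) keep their place, while Ccna2 goes to -0.17 and Spag5 to 0.17.

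Other probes of the same gene were then compared. Of the 36 members, 19 had several probes that met the filter, and in 9 of them (47.4%) the probes had differences of opposite sign, against 44.4% of all genes with several probes. Of 63 probes of members, 9 were lower (14.3%) and 4 higher (6.35%) at an unadjusted exact permutation p under 0.05, against 6.83% and 2.68% of all probes. Probes of a gene share a transcript and are not independent, and these p-values are not adjusted. Of the 9 lower probes, 2 were at background on all 4 Socs2-/- arrays and so met the filter through wt arrays only. Only 3 of these 13 were the probe that stood for the gene. The smallest exact p that 4 against 5 arrays allow is 0.0159, and 2 against 5 arrays cannot go below 0.0952.

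Kif23 had 4 probes that met the filter. A probe other than the brightest (ILMN_1220121) read 9.67, 7.16, 9.12 and 9.08 in Socs2-/- arrays, against 11.43, 11.45, 10.31, 11.32 and 10.77 in wt arrays. Every Socs2-/- value lay below every wt value, a difference of -2.30 (exact two-sided permutation p = 0.0159), or -1.96 on 7 arrays. A further probe (ILMN_2923463) had -1.60 on 9 arrays and -0.68 on 7, and the last (ILMN_1249092) had 0.01 and -0.09, next to 0.0055 and -0.13 for the brightest. The 4 probes thus differed in size, from near 0 to -2.30, and on 7 arrays all 4 were below 0.

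The dimmer probe of Smc2 (ILMN_2689642) read 6.87, 6.60, 7.28 and 6.80 in Socs2-/- arrays, against 7.12, 9.23, 10.55, 8.77 and 8.46 in wt arrays. All Socs2-/- values were at background, so the probe met the filter through wt arrays only and was at least 2.51-fold lower, while the brightest probe had a difference of 0.88. Cdc20 had 4 probes from -1.03 to 1.44 on 9 arrays and from -0.61 to 0.99 on 7. A second Cdk1 probe (ILMN_2657844) had 1.504 (exact p = 0.0476) on 9 arrays and 1.47 on 7. Its values were 9.90, 9.06, 10.25 and 8.56 in Socs2-/- arrays, against 6.80, 9.22, 7.43, 8.18 and 8.05 in wt arrays. A dimmer Prc1 probe (ILMN_1215164) was at background on all 4 Socs2-/- arrays and above it on 4 of 5 wt arrays, through which alone it met the filter, and was at least 2.04-fold lower. Dimmer probes of Anln (ILMN_2595597), Smc4 (ILMN_1255902) and Nusap1 (ILMN_3156419) had -0.89, -1.19 and -1.01 on 9 arrays (exact p = 0.0476, 0.0317 and 0.0317). On 7 arrays these probes had -0.67, -0.94 and -1.11, where the brightest probes of the same genes had 0.57, 0.26 and 0.05. A further Nusap1 probe (ILMN_1231500) had 0.18 on 9 arrays and 0.15 on 7. Ncapg had a second probe at 0.15 on 9 arrays and 0.81 on 7. Hmmr had 1 probe that met the filter. Its other probe (ILMN_2681054), above 7.5 on 3 arrays, missed the filter and had -0.12 on 9 arrays and 0.08 on 7.

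Further genes of the pathway were read from 6 lists of 128 entries, of which 101 were tested. None passed the adjusted threshold in limma. On 9 arrays 8 of 101 were lower at an unadjusted p under 0.05, where 7.87% of all genes were, and 1 was higher, where 2.29% were. Of the 101, 72 were below 0, with a median of -0.36, against -0.18 over all genes. On 7 arrays 4 were lower, where 3.44% of all genes were, and 2 were higher, where 2.96% were. There 53 of 101 were below 0, against 52% of all genes, and the median was -0.04, against -0.03.

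Regulators of mitotic transcription were below 0 in 9 of 11 on 9 arrays, with a median of -0.31, and in 3 of 11 on 7, with a median of 0.10. Foxm1, the forkhead factor that drives G2/M genes, had 0.27 (SE 0.44) on 9 arrays and 0.48 on 7, and Mybl2, the MYB-MuvB subunit, had -0.34 (SE 0.79) and 0.65. Nfyc, a subunit of the CCAAT-binding NF-Y, had -0.78 on 9 arrays and 0.01 on 7, and the CHR-binding MuvB subunit Lin54 had -0.85, or 0.81 on 7 arrays. Lin54 read 6.71 and 6.72 on Socs2-/- arrays 1 and 2 and 9.04 and 11.04 on arrays 3 and 4, against 8.06 to 10.20 in wt.

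Cyclins and CDK regulators were below 0 in 4 of 8 on 9 arrays, with a median of -0.14, and in 1 of 8 on 7, with a median of 0.38. Ensa, an inhibitor of the phosphatase PP2A in mitosis, had -0.84 on 9 arrays and 0.45 on 7, and the Aurka cofactor Bora had -0.67 and -0.46. Among APC/C genes 6 of 13 were below 0 on 9 arrays, with a median of 0.08, and 7 of 13 on 7, with a median of -0.03. The subunit Cdc27 had -1.27 (unadjusted p = 0.025) on 9 arrays and -0.98 on 7, and the ubiquitin-conjugating enzyme Ube2s had 0.78 and 0.41. In the spindle and centrosome list 17 of 22 were below 0 on 9 arrays, with a median of -0.59, and 14 of 22 on 7, with a median of -0.16. The kinase Melk had 1.30 on 9 arrays and 0.82 on 7, while the dynein regulator Ndel1 had -1.35 and -1.73. None of the genes of these 4 lists named here passed the adjusted threshold (9 arrays, limma adjusted p from 0.453 to 0.892).

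Kinetochore and checkpoint genes were below 0 in 26 of 33 on 9 arrays, where 59.5% of all genes were, with a median of -0.35. At an unadjusted p under 0.05, 5 of 33 were lower, where 7.87% of all genes were, and 1 of these 5, Nsl1, met the filter through wt arrays only. On 7 arrays 21 of 33 were below 0, where 52% of all genes were, with 2 lower at that p, where 3.44% were, and a median of -0.25. Nsl1, of the MIS12 complex that anchors kinetochores to centromeres, read 6.76, 6.84, 7.08 and 6.74 in Socs2-/- arrays, against 9.64, 9.09, 9.91, 7.31 and 9.70 in wt arrays. It was at background on all 4 Socs2-/- arrays and on wt array 4, hence at least 3.09-fold lower, a direction the filter favours, and it did not pass the adjusted threshold (limma adjusted p = 0.216). Ska2, which holds kinetochores on microtubule ends, read 7.71, 6.85, 8.08 and 6.98 in Socs2-/- arrays, against 10.44, 9.55, 8.31, 9.35 and 8.50 in wt arrays. The genotypes were apart, with a difference of -1.83 (SE 0.51, adjusted p = 0.312), or -1.70 on 7 arrays.

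Condensin and cohesin genes were below 0 in 10 of 14 on 9 arrays, where 59.5% of all genes were, with a median of -0.46. At an unadjusted p under 0.05 they had 2 genes lower, where 7.87% of all genes were, and 1 gene higher, where 2.29% were. On 7 arrays 7 of 14 were below 0, with 1 lower and 1 higher at that p, where 3.44% and 2.96% of all genes were, and a median of -0.14. Stag2, a subunit of the cohesin ring that holds sister chromatids together, read 7.09, 6.71, 7.80 and 9.24 in Socs2-/- arrays, against 10.41, 10.04, 10.45, 10.63 and 9.25 in wt arrays. Every Socs2-/- value was below every wt value, though Socs2-/- array 4 and wt array 5 nearly met. The difference was -2.45 (SE 0.55, limma adjusted p = 0.216) on 9 arrays and -1.64 (adjusted p = 0.597) on 7. Ncaph2, of condensin II, read 9.38, 9.57, 9.43 and 9.36 in Socs2-/- arrays, against 8.38, 8.51, 7.80, 8.40 and 8.46 in wt arrays. All Socs2-/- values were above all wt values, at a difference of 1.12 (SE 0.32, adjusted p = 0.331), and 1.08 on 7 arrays. These genes were named because they rank first by p in lists of 33 and 14 genes.

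Markers of cells other than LSK were read beside these values. The summed log2 level of 9 erythroid markers with a probe ranged from 75.7 to 90.9 in Socs2-/- arrays and from 73.2 to 78.1 in wt arrays, with 4 of 9 tested and Epor at background on all 9 arrays. Only Socs2-/- array 1, at 90.9, lay above the wt range, and the other Socs2-/- arrays, from 75.7 to 77.2, lay inside it. Hba-a1 (alpha globin), from red cell precursors, read 13.32, 10.41, 8.92 and 10.52 in Socs2-/- arrays, against 6.84, 6.84, 7.01, 7.30 and 9.10 in wt arrays. Its highest value was on Socs2-/- array 1, where 10 of 36 mitosis genes were at background, and its difference was 3.37 (limma adjusted p = 0.233) on 9 arrays and 2.30 on 7. The other erythroid markers tested, with differences on 9 and on 7 arrays, were Hbb-b2 (0.70 and -0.20), Hbb-bt (0.51 and -0.36) and the transferrin receptor Tfrc (-0.12 and 1.39). Sums of the other lists overlapped between genotypes too. Granulocyte and monocyte markers (13 genes, 9 tested) lay from 109.6 to 120.2 in Socs2-/- and 109.6 to 123.0 in wt arrays. B cell markers (6 genes, 3 tested) lay from 44.5 to 48.2 and 45.05 to 49.4. T and NK cell markers (8 genes, 4 tested) lay from 59.6 to 67.2 and 60.7 to 70.5. Megakaryocyte markers (6 genes, 3 tested) lay from 50.3 to 52.0 and 50.1 to 55.5. Elane, Ms4a1 and Pax5 were at background on all 9 arrays. Genes not tested add mostly background values, so overlap of the sums does not measure how many such cells were present. Within the granulocyte and monocyte list Csf1r, the receptor of macrophage growth factor M-CSF, lay from 8.94 to 10.04 in Socs2-/- arrays, against 6.94 to 8.30 in wt arrays, fully apart. Its difference was 1.46 (SE 0.42, limma adjusted p = 0.317) on 9 arrays and 1.66 on 7. Csf1r was the highest of the 9 genes of that list that were tested, and others went the other way. Of the 9, 5 were below 0 on 9 arrays and 4 on 7, with medians of -0.10 and 0.06. The lowest differences in the list were -1.58 on 9 arrays and -2.19 on 7. The 12 stem cell and LSK markers with a probe were all tested, and their sum ranged from 102.9 to 115.2 in Socs2-/- arrays and from 104.3 to 120.4 in wt arrays. The part of these cells in the mitosis values was not tested.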

How the data were processed

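The deposited values per probe were taken to be log2. The submitters' processing notes name lumi, an R package for bead arrays, while background correction, transformation and normalization were not given in the sources used here. Variance-stabilised values would understate differences of dim genes. The 18 value columns of a second, non-normalized table are named by chip positions found in no label, and were left out.

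Of 45281 probes, 34885 had 1 symbol in the platform annotation, 18 several and 10378 none. Those with 1 symbol entered when above 7.5 on at least 4 of 9 arrays, and the probe with the highest mean stood for its gene, giving 8543 genes. The test was limma 3.58.1 in R 4.3.3 (lmFit, eBayes), two-sided and without covariates, with p-values adjusted over all genes by Benjamini-Hochberg, and single probes with an exact permutation test over 126 splits. Other probes of members, filters, scalings, a floor, array weights, the replicate number as a block and each array left out were tried. The procedure was tested on simulated data. Same-numbered arrays of the genotypes did not deviate together (correlations from -0.07 to 0.04), so numbers were not taken as pairs. The number of arrays limits the precision.

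The members, their roles and all lists were chosen with earlier results of these data known. Values on every array are given for the 12 members with the smallest unadjusted p, and pathway genes named are Foxm1, Mybl2 and up to 2 genes per list with the smallest unadjusted p; Mki67 and Ccnb1, which the rule also lists, are not analysed here. Csf1r and the Kif23, Cdk1, Prc1, Smc2, Anln, Smc4, Nusap1, Cenpa, Ttk, Hmmr and Ncapg probes were named after their values were seen. So were the Cdca3, Plk1, Aurkb, Mad2l1 and Lin54 readings.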

Additional observations from a re-analysis of the deposited data

Results flagged for a closer look

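In 72 groups (36 mitosis genes in 2 genotypes), 8 had a highest or lowest array set apart from the others by more than Dixon's critical value. Chance flags about 1 in 20 groups when values are normally spread. The share flagged over all genes tested was not computed, so the count is not read as a trait of the mitosis genes. In the knockout, Aurka read 10.82 on array 3 and 6.88 to 7.07 on the others, and Bub1b read 10.92 on array 3 and 9.52 to 9.67 on the others. Low values in the knockout were Aurkb on array 1 (7.09, the others 10.16 to 10.50), Cenpa on array 2 (9.63, the others 11.69 to 11.81) and Prc1 on array 4 (8.41, the others 10.41 to 10.75). In wt arrays, Bub1b read 11.03 on array 2 (the others 9.50 to 9.74), Kif23 read 11.95 on array 1 (the others 11.00 to 11.22) and Cdca8 read 11.16 on array 1 (the others 11.84 to 11.98). The cause was not tested for any of them.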

How the results depend on the processing

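In 20 alternatives, 0 mitosis genes passed the adjusted threshold. The count over all genes, 1 as reported, was 2 with no filter, 3 with values above 7.5 on all 9 arrays, and 0 with the replicate block, without Socs2-/- arrays 1 and 2, with the variance trend, with centred arrays or with a floor at 7.5; leaving out single arrays gave 0 to 7, the 7 without wt replicate 3. The members' median of -0.35, against -0.18 over all genes, became 0.0575 without Socs2-/- arrays 1 and 2, against -0.03. Without Socs2-/- replicate 1 it was -0.15, close to the -0.14 over all genes. Without Socs2-/- replicate 3 it was -0.38, against -0.26. With no filter it was -0.34, against -0.008 over all genes. The members' median was -0.16 with each array centred on its median, which moved the median of all genes to 0.01. With the replicate block it was -0.28, against -0.165 over all genes. The numbers were not taken to pair the arrays. On 7 arrays, alternatives chosen after seeing the data gave medians from -0.09 to 0.14. Members at an unadjusted p under 0.05 numbered 0 to 3 lower and 0 to 3 higher. Over all genes the shares were 7.87% lower and 2.29% higher on 9 arrays as reported, and 3.44% and 2.96% on 7 arrays. They were not computed for the other alternatives, so these counts are not read against a background. Of 229 refits of the 12 named members, 226 kept direction. The exceptions were Spag5 (0.17) and Anln (0.57) without Socs2-/- arrays 1 and 2, and Smc2 (-0.53) with the mean of all probes. The smallest limma adjusted p among these refits was 0.193, so none passed the threshold. Kept direction is not kept size. Without Socs2-/- arrays 1 and 2, Ccna2 went from -1.92 to -0.17 and Aurka from -1.07 to -0.14. Ncapg went from -1.18 to -1.09 and Kif2c from 1.61 to 1.72. Signal over background limits every gene near 7.5.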
